A study of Homo sapiens with 6 samples.

Results

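The aminoacyl-tRNA synthetases are the enzymes that load each tRNA with its amino acid. They were followed here at the mRNA level in MDA-MB-231, an established human triple-negative breast cancer (TNBC) cell line, as 36 genes chosen by name, 20 encoding cytosolic and 16 encoding mitochondrial enzymes. All 36 were among the 15651 genes of the table, and all 36 passed the filter on low values that left 15246 genes. MDA-MB-231 cells, for which the labels give no genetic change, were grown in medium with serum and given either the vehicle DMSO or BRL-50481, an inhibitor of the cyclic AMP phosphodiesterase PDE7A, with 3 libraries in each group. For BRL-50481 the labels disagree, with 50 μM for 72 h in their protocol text and 5 μM for 48 h among their tags. RNA selection is described as oligo-dT in one place and as ribosomal RNA depletion in another. The comparison addressed what the inhibitor does to the transcripts of this TNBC line, and the series holds this cell line alone.

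Each synthetase recognizes an amino acid and its tRNAs, and the enzymes fall into class I and class II, which have unrelated catalytic folds. Cytosolic and mitochondrial translation use separate enzymes for most amino acids, all encoded in the nucleus, while GARS and KARS each supply both compartments from 1 gene. In the cytosol 8 of the enzymes assemble with 3 scaffold proteins into the multisynthetase complex. Uncharged tRNA activates the kinase GCN2 (EIF2AK4), and the transcription factor ATF4, translated when eIF2α is phosphorylated, is known to act on several cytosolic synthetase genes.

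Between 30750573 and 33446984 reads per library lay on genes, and the lowest value of any synthetase was 144 reads, for SARS2 in 1 DMSO library. Values are normalized counts, meaning reads divided by a size factor of the library. Of 5 markers of the cell line, VIM, CD44, AXL and FN1 had DMSO means of 14802 to 58840, whereas SPARC lay between 13.3 and 36.3 in the 6 libraries. PGR (at most 7.75) and CDH1 (31.7 to 105) were low, ERBB2 lay between 1606 and 1979, and ESR1 was not among the rows. Of 6 markers of other cell types, PECAM1 (325 to 537) and COL1A1 (309 to 363) were listed, and PTPRC, ALB, CD3E and DCN were not. The summed level of these other-cell markers ran from 661 to 733 in the vehicle libraries and from 804 to 891 with the inhibitor, with PECAM1 at 357 and 498 and COL1A1 at 337 and 338 on average, and its part in the results was not tested. All 5 of these cell line markers rose, SPARC from its low level, while 28.9% of all genes tested were called higher. Their sum ran from 149047 to 151485 with the vehicle and from 208028 to 211626 with the inhibitor. PDE7A mRNA was lower with its inhibitor (406 ± 2.06 and 298 ± 40.6, mean ± SD, n = 3, log2 fold change −0.45, limma adjusted p = 0.00199).

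BRL-50481 moved the synthetase mRNAs in both directions, by small amounts. In the limma fit over all genes, with an adjusted p-value under 0.05 as the threshold, 12 of the 36 members rose and 15 fell. Over all genes tested 58.7% were called, 28.9% higher and 29.8% lower, so most genes passed this threshold. Among the cytosolic enzymes 8 rose, 9 fell and 3 were not called, and the median log2 fold change (BRL-50481 over DMSO) was 0.012. Among the mitochondrial enzymes 4 rose, 6 fell and 6 were not called, with a median of −0.16. The median over all genes was 0.015. Among genes in the level range of the cytosolic enzymes it was −0.053, with 30.0% higher and 41.3% lower. In the level range of the mitochondrial enzymes it was −0.045, with 29.7% higher and 38.2% lower. The share of members called was 85.0% for the cytosolic and 62.5% for the mitochondrial enzymes, beside 71.3% and 67.9% of the genes in the same ranges of mean level. In a whole culture, fewer cells of a kind and less RNA per cell cannot be told apart.

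The changes were mostly below 0.5 on the log2 scale. Past that size 1 member rose (SARS2) and 5 fell (MARS2, FARSA, CARS2, NARS2 and KARS), while 27.2% of all genes were called and past that size, 15.1% higher and 12.1% lower. The cytosolic fold changes ran from −0.60 to 0.49 and the mitochondrial ones from −0.82 to 1.21. The 3 BRL-50481 values lay wholly above or wholly below the 3 DMSO values for 18 cytosolic and 13 mitochondrial members, and for 64.2% of all genes.

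**Figure D1:**
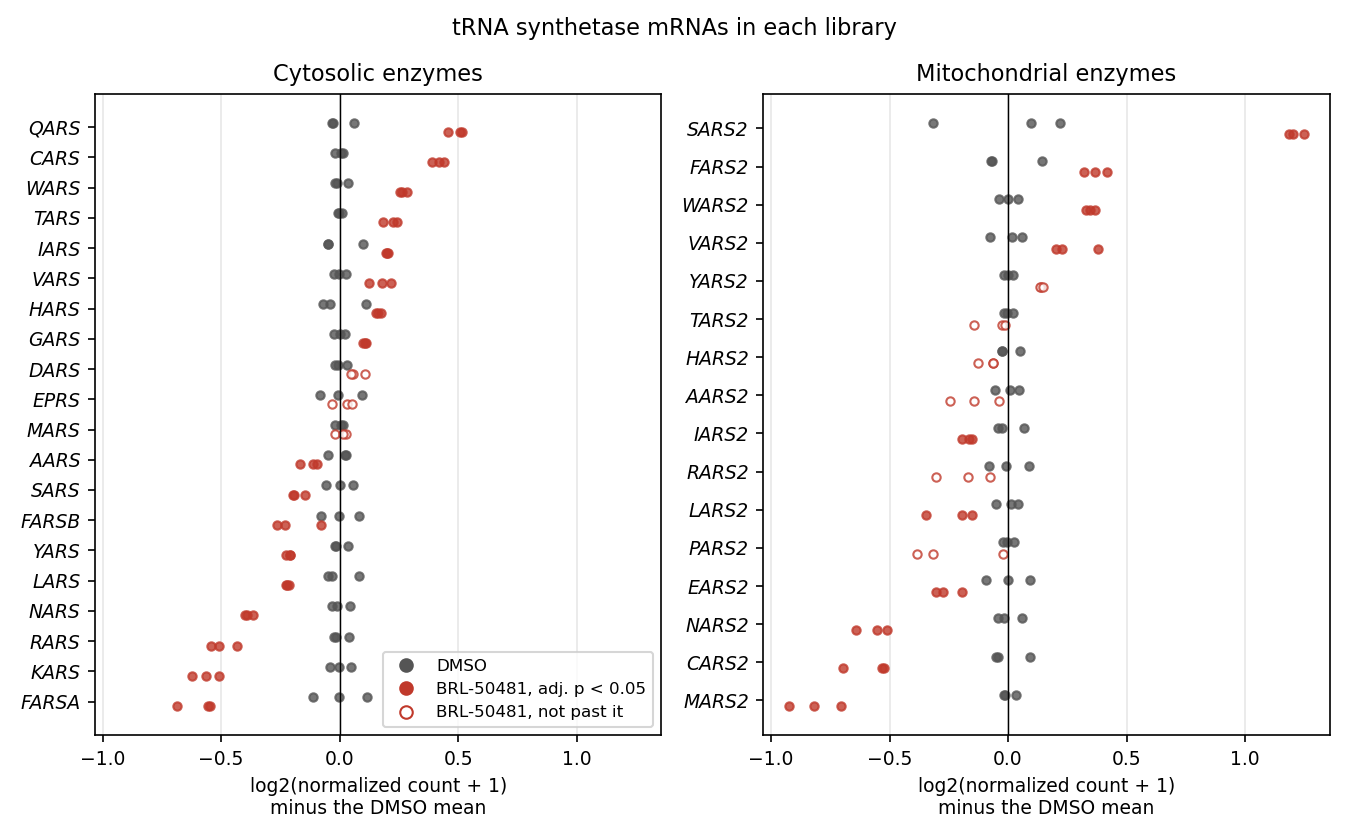
Each point is 1 library, plotted as log2(normalized count + 1) minus the DMSO mean of the gene, for the cytosolic (left) and mitochondrial (right) synthetases ordered by fold change. Gray points are DMSO, filled red points BRL-50481 for genes past an adjusted p-value of 0.05 and open points for the 9 that were not. The 8 cytosolic genes that rose and the 9 that fell lie on either side of the zero line, and SARS2 and MARS2 lie farthest from it.

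Per kilobase of transcript, the cytosolic mRNAs were the more abundant set in both conditions. The median DMSO level was 3589 normalized counts per kilobase for the cytosolic enzymes, from 378 (FARSB, whose reference transcript is 6761 bases long) to 12661 (SARS). It was 249.9 for the mitochondrial enzymes, from 96.5 (SARS2) to 2482 (IARS2). IARS2, the mitochondrial isoleucine enzyme, stood apart from the next mitochondrial members, CARS2 at 594 and NARS2 at 583 per kilobase. With BRL-50481 the medians were 3221 and 254.6. The summed level per kilobase of the cytosolic set was 11.8, 12.1 and 12.0 times that of the mitochondrial set in the DMSO libraries and 13.0, 12.5 and 13.0 times in the BRL-50481 libraries, so the groups did not overlap. The mitochondrial sum of normalized counts was 21015, 20480 and 20565 in DMSO and 18287, 19055 and 18551 in BRL-50481, again without overlap. IARS2 alone made up a mean of 8761 of it in DMSO and 7771 in BRL-50481, so this sum leans on 1 gene. The cytosolic sum of normalized counts overlapped, with 234263, 232636 and 230237 in DMSO and 228806, 228868 and 231260 in BRL-50481. Per kilobase the cytosolic sum did not overlap and was lower with BRL-50481. It was 81824, 82726 and 81488 in DMSO and 79539, 79600 and 80496 in BRL-50481. As a share of all normalized counts of a library, the cytosolic set made up 0.705% to 0.720% with the vehicle and 0.738% to 0.744% with the inhibitor. The mitochondrial set made up 0.0625% to 0.0646% and 0.0591% to 0.0615%. The total of all normalized counts was itself lower with the inhibitor, at 30956800 to 31073500 beside 32547500 to 32764000 with the vehicle. The higher cytosolic share therefore came without a higher cytosolic sum.

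**Figure D2:**
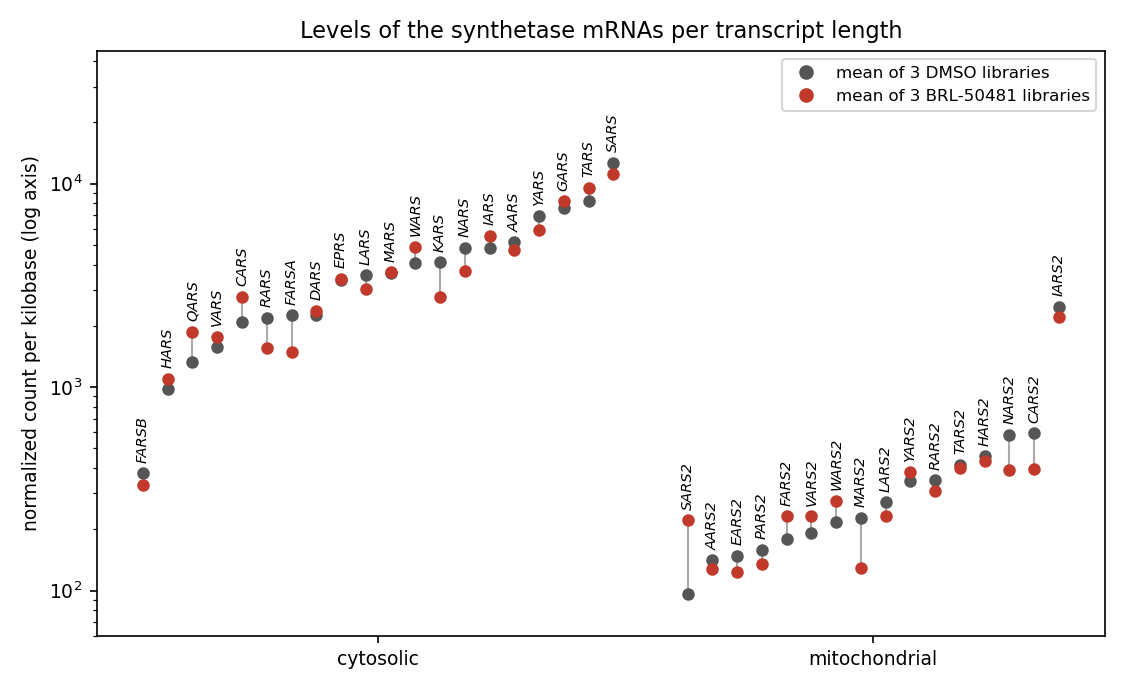
Mean normalized count per kilobase of transcript (log axis) of each synthetase in 3 DMSO (gray) and 3 BRL-50481 (red) libraries, ordered by DMSO level within each compartment. Most mitochondrial genes lie below the cytosolic ones, with IARS2 (2482 in DMSO) among the cytosolic levels and FARSB (378 in DMSO) among the mitochondrial ones.

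The promoters of the members were read for the letters TGATGNAA on either strand, the core of the C/EBP-ATF response element through which ATF4 acts on amino acid response genes. The windows were those of RefSeq on GRCh38.p14, from 250 bases before to 50 bases after each start site. Of the 20 cytosolic genes, 16 had a window and 7 of these (43.8%) held the letters. Of the 16 mitochondrial genes, 14 had a window and 1 (7.14%) held them. Among all 27305 genes with a window the share was 4.46%. DARS, LARS, VARS, YARS, AARS2 and VARS2 had no window. The 30 bases around each match are shown because these counts rest on them, with the matched letters in capitals and each stretch written on the strand that reads TGATGNAA.
AARS, chr16:70289675-70289704, plus strand: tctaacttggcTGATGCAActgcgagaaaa
CARS, chr11:3057407-3057436, plus strand: ttcctagaatcTGATGCAAccgccgccccg
GARS, chr7:30594834-30594863, minus strand: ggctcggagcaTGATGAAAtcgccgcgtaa
IARS, chr9:92293692-92293721, plus strand: gcgcacggaggTGATGCAAcgcgctgaaaa
MARS, chr12:57488053-57488082, minus strand: gaatccctcgcTGATGCAAccggaaccggc
NARS, chr18:57621804-57621833, minus strand: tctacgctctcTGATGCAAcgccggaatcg
TARS, chr5:33440956-33440985, minus strand: gctggaccagcTGATGCAAtcgaaaggcgc
YARS2, chr12:32756076-32756105, minus strand: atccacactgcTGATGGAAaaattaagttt

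In 6 of the 7 cytosolic stretches the letters were TGATGCAA, and in 6 they lay within 50 bases of the start site. In 6 they read on the strand opposite to the gene, NARS being the exception. Counted from the start site as 0, those of AARS began at −187 and those of YARS2 at −197. CARS, GARS and TARS have 2 windows each, of which 1 held the letters. The 7 cytosolic genes with the letters did not move together. CARS, TARS, IARS and GARS rose, NARS and AARS fell, MARS was not called, and the median log2 fold change was 0.11. Of the 9 cytosolic genes with a window that lacked the letters, 3 rose, 5 fell and 1 was not called, with a median of −0.18. A match of letters is a description of the sequence and no measurement of binding.

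Among the 8 members of the multisynthetase complex, QARS and IARS rose, KARS, RARS and LARS fell, and EPRS, MARS and DARS were not called. KARS (chr16:75627474-75648643, minus strand, hg38), the lysine enzyme of both compartments, had normalized counts of 7923, 8423 and 8133 in DMSO and 5301, 5523 and 5726 in BRL-50481. The groups were well separated, and the log2 fold change was −0.56 ± 0.0486 (SE, limma adjusted p = 6.37e-07). RARS, the arginine enzyme, was at 4585, 4610 and 4790 in DMSO and 3455, 3202 and 3276 in BRL-50481, and fell by 0.49 on the log2 scale. QARS (chr3:49095932-49105130, minus strand), the glutamine enzyme, went the other way. Its values were 3178, 3392 and 3191 in DMSO and 4468, 4620 and 4646 in BRL-50481, a log2 fold change of 0.49 ± 0.0497 and the highest among the cytosolic members. RARS, QARS and CARS are given by library although their values had been seen when they were chosen.

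EPRS (chr1:219968600-220046530, minus strand), a fused enzyme for glutamate and proline, was at 17480, 15455 and 16310 in DMSO and 16743, 16031 and 16985 in BRL-50481. Its groups overlapped, and the log2 fold change of 0.016 had a 95% interval of −0.095 to 0.13 (adjusted p = 0.804). MARS, the methionine enzyme that also charges initiator tRNA, overlapped as well, with 10212, 10299 and 10049 in DMSO and 10040, 10383 and 10284 in BRL-50481. Its log2 fold change was 0.0068, with an interval of −0.086 to 0.099 (adjusted p = 0.904). EPRS turned negative without DMSO replicate 2 (−0.026) or BRL-50481 replicate 3 (−0.00099), and MARS without DMSO replicate 3 (−0.0029) or BRL-50481 replicate 2 (−0.0035). DARS, for aspartate, had a log2 fold change of 0.070 with an interval of −0.027 to 0.17, and passed under the length and GC correction (0.089). IARS rose by 0.20 and LARS fell by 0.22. The complex as a whole had a median log2 fold change of 0.012.

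All 12 cytosolic enzymes outside the complex were called, 6 in each direction, beside 71.3% of genes in the level range of the cytosolic enzymes. AARS, FARSB, GARS and HARS each lost the call in at least 1 fit that left out a library. FARSA (chr19:12922479-12934037, minus strand), the α subunit of the phenylalanine enzyme, had the largest decrease of the cytosolic set, with 3762, 4405 and 4053 in DMSO and 2529, 2779 and 2766 in BRL-50481 (log2 fold change −0.60 ± 0.0641, adjusted p = 4.39e-06). FARSB, the β subunit with which it forms the active enzyme, fell by 0.19 on the log2 scale. The ratio of FARSA to FARSB per kilobase was 5.98 ± 0.673 in DMSO and, without overlap, 4.50 ± 0.249 (SD, n = 3) with BRL-50481. A two-sided exact permutation test gave p = 0.1, the smallest value that 3 against 3 libraries allow. The pair was chosen after its values were seen. The size of this ratio, though not its change between groups, depends on the reference transcript lengths, 1811 bases for FARSA and 6761 for FARSB. Before division by length the DMSO means were 4074 and 2552 normalized counts. FARSB was not called without BRL-50481 replicate 1 (−0.16, adjusted p = 0.0995) or replicate 2 (−0.17, adjusted p = 0.0822), under quantile normalization (−0.12, adjusted p = 0.102) or with no trend in limma (adjusted p = 0.0754).

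CARS (chr11:3000922-3057613, minus strand), the cysteine enzyme, rose from 5628, 5727 and 5768 in DMSO to 7752, 7479 and 7633 in BRL-50481, a log2 fold change of 0.42 ± 0.0442. WARS rose by 0.27 on the log2 scale, TARS by 0.22 and VARS by 0.17, whereas NARS fell by 0.39, YARS by 0.21 and SARS by 0.18. GARS (chr7:30580533-30634033, plus strand), the glycine enzyme of both compartments, was at 18251, 18561 and 18846 in DMSO and 19958, 19846 and 20061 in BRL-50481. Its groups were separate but close, and the log2 fold change of 0.11 had an adjusted p of 0.0422. That call was lost without DMSO replicate 2 or 3 or any 1 of the BRL-50481 libraries, where GARS stayed between 0.10 and 0.12 with adjusted p-values of 0.0640 to 0.145. AARS, for alanine, fell by 0.13 (adjusted p = 0.0273), and this was not called without DMSO replicate 2 or BRL-50481 replicate 1 or 3, with AARS between −0.13 and −0.10. The AARS call was also lost under quantile normalization (−0.049, adjusted p = 0.333), median centring (−0.095, 0.0856) and limma with no trend (0.0779), and that of GARS with no trend (0.0826) and in DESeq2 (0.0605). SARS was not called with quantile normalization (−0.040, adjusted p = 0.398). Without GARS and KARS, which serve both compartments, 7 cytosolic enzymes rose and 8 fell.

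The HARS and HARS2 genes, for the cytosolic and mitochondrial histidine enzymes, lie head to head on chromosome 5, and the 84 bases between their RefSeq start sites are 59.5% G or C. They are shown because both genes are transcribed away from this stretch from those start sites, with the plus strand reading toward HARS2. In GENCODE the gene models overlap here, as HARS (minus strand) reaches to 140691537 and HARS2 begins at 140691430.
HARS to HARS2, chr5:140691371-140691454, plus strand: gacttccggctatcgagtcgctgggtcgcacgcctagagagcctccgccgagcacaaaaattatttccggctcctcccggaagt

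HARS was at 1858, 2061 and 1819 in DMSO and 2126, 2157 and 2137 in BRL-50481 (log2 fold change 0.16, adjusted p = 0.0299). HARS2 was at 1108, 1110 and 1171 in DMSO and 1080, 1034 and 1082 in BRL-50481 (−0.084, 95% interval −0.22 to 0.048, adjusted p = 0.254). For HARS every BRL-50481 library lay above, and for HARS2 below, every DMSO library. The log2 ratio of HARS to HARS2 was higher by 0.25 with BRL-50481 (exact permutation p = 0.1). HARS was not called without DMSO replicate 3 or any 1 of the BRL-50481 libraries, with adjusted p-values of 0.0726 to 0.138, or with no trend in limma (0.0728).

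Of the mitochondrial enzymes, SARS2 (chr19:38915266-38930763, minus strand), for serine, rose the most. It was at 196, 214 and 147 in DMSO and 424, 437 and 419 in BRL-50481, with no overlap and a log2 fold change of 1.21 ± 0.127 (adjusted p = 3.38e-06). Another protein-coding gene model on the same strand overlaps 48.2% of the exon bases of SARS2 in GENCODE, so reads of the pair are uncertain. FARS2, for phenylalanine, rose by 0.37 on the log2 scale and WARS2, for tryptophan, by 0.35. VARS2, for valine, rose by 0.27, and a noncoding gene model on the same strand overlaps 63.0% of its exon bases.

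MARS2 (chr2:197705369-197708395, plus strand), the mitochondrial methionine enzyme, fell the most of all 36. Its normalized counts were 684, 682 and 706 in DMSO and 391, 423 and 363 in BRL-50481, a log2 fold change of −0.82 ± 0.0804 (adjusted p = 2.06e-06). CARS2 (chr13:110641412-110713603, minus strand), for cysteine, was at 1057, 1163 and 1053 in DMSO and 758, 752 and 672 in BRL-50481 (−0.58 ± 0.0736, adjusted p = 1.74e-05). NARS2 (chr11:78435620-78575194, minus strand), for asparagine, was at 1446, 1421 and 1524 in DMSO and 936, 1025 and 997 in BRL-50481 (−0.57 ± 0.0630, adjusted p = 5.57e-06). In all 3 genes the groups were far apart. EARS2 fell by 0.26 on the log2 scale, LARS2 by 0.23 and IARS2 by 0.17, and LARS2 was not called without BRL-50481 replicate 1 (−0.17, adjusted p = 0.0583).

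The other mitochondrial enzymes did not pass the threshold. Their log2 fold changes were −0.24 for PARS2 (adjusted p = 0.0608), −0.18 for RARS2 (0.0642), −0.14 for AARS2 (0.128), −0.060 for TARS2 (0.433) and 0.14 for YARS2 (0.0773), beside HARS2. DMSO replicate 1 was the library farthest from its group. Without it RARS2 (−0.22, adjusted p = 0.00822), PARS2 (−0.24, 0.0401) and AARS2 (−0.17, 0.0494) passed, and 9 mitochondrial enzymes fell. PARS2 (−0.35) and RARS2 (−0.24) also passed without BRL-50481 replicate 2. YARS2 passed under median centring (0.17), quantile normalization (0.18), the length and GC correction (0.22) and limma with no trend. PARS2 also passed under quantile normalization (−0.30), and AARS2 under the length and GC correction (−0.17).

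By structural class, 5 of the 10 cytosolic class I enzymes rose and 3 fell (median log2 fold change 0.094), and 3 of the 10 class II enzymes rose and 6 fell (median −0.15). EPRS, which holds a domain of each class, was counted with class I. Among the mitochondrial enzymes, 2 class I members rose and 5 fell (median −0.18), and 2 class II members rose and 1 fell (median −0.084). In the level range of the cytosolic enzymes 30.0% of genes were higher and 41.3% lower. The shares were 29.7% and 38.2% in that of the mitochondrial enzymes.

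Comparing both enzymes of an amino acid within each library asked whether the compartments moved apart. Of 17 pairs, 13 had ratios that did not overlap between DMSO and BRL-50481, with the cytosolic enzyme relatively higher in 7 and lower in 6. EPRS was paired with both EARS2 and PARS2, and FARS2 with both FARSA and FARSB, so these pairs are not separate comparisons. Both phenylalanine pairs are among the 6 that were lower. Single genes did not overlap in 64.2% of all cases, so separate groups were common in this comparison. In each of the 13 pairs without overlap a two-sided exact permutation test gave p = 0.1, the smallest possible with 3 against 3 libraries. After adjustment over the 17 pairs this was 0.131, so none could pass 0.05. In 5 pairs the enzymes were called in opposite directions, in 4 in the same direction, in 7 only one was called and in 1 neither was. The phenylalanine pairs, which share FARS2, are both among the 5 called in opposite directions.

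The widest shifts toward the cytosolic enzyme were those of cysteine and methionine. The ratio of CARS to CARS2 per kilobase was 3.58, 3.31 and 3.68 in DMSO and 6.87, 6.67 and 7.63 in BRL-50481, a change of 1.00 on the log2 scale, as CARS rose and CARS2 fell. The ratio of MARS to MARS2 was 16.2, 16.3 and 15.4 in DMSO and 27.8, 26.6 and 30.6 in BRL-50481, a change of 0.82 in which MARS2 alone was called. Smaller changes in this direction were 0.37 for IARS to IARS2, 0.28 for TARS to TARS2, 0.27 for EPRS to EARS2 and 0.18 for NARS to NARS2.

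Serine and phenylalanine shifted toward the mitochondrial enzyme. The ratio of SARS to SARS2 per kilobase was 119, 119 and 166 in DMSO and 50.1, 48.7 and 52.5 in BRL-50481, a log2 change of −1.39. SARS2 had the lowest DMSO mean of the members, and another gene model overlaps 48.2% of its exon bases, so this ratio is uncertain. The ratio of FARSA to FARS2 was 12.2, 12.3 and 13.1 in DMSO and 5.84, 6.86 and 6.60 in BRL-50481, a log2 change of −0.96, and FARSB to FARS2 changed by −0.56. The log2 ratio also differed by −0.35 for YARS to YARS2, −0.31 for RARS to RARS2 and −0.097 for VARS to VARS2. A noncoding gene model overlaps 63.0% of the exon bases of VARS2. The groups overlapped for AARS to AARS2 (0.018, exact permutation p = 0.9), LARS to LARS2 (0.010, p = 0.9), EPRS to PARS2 (0.26, p = 0.3) and WARS to WARS2 (−0.081, p = 0.2). In the leucine pair both LARS and LARS2 fell, and in the tryptophan pair both WARS and WARS2 rose.

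**Figure D3:**
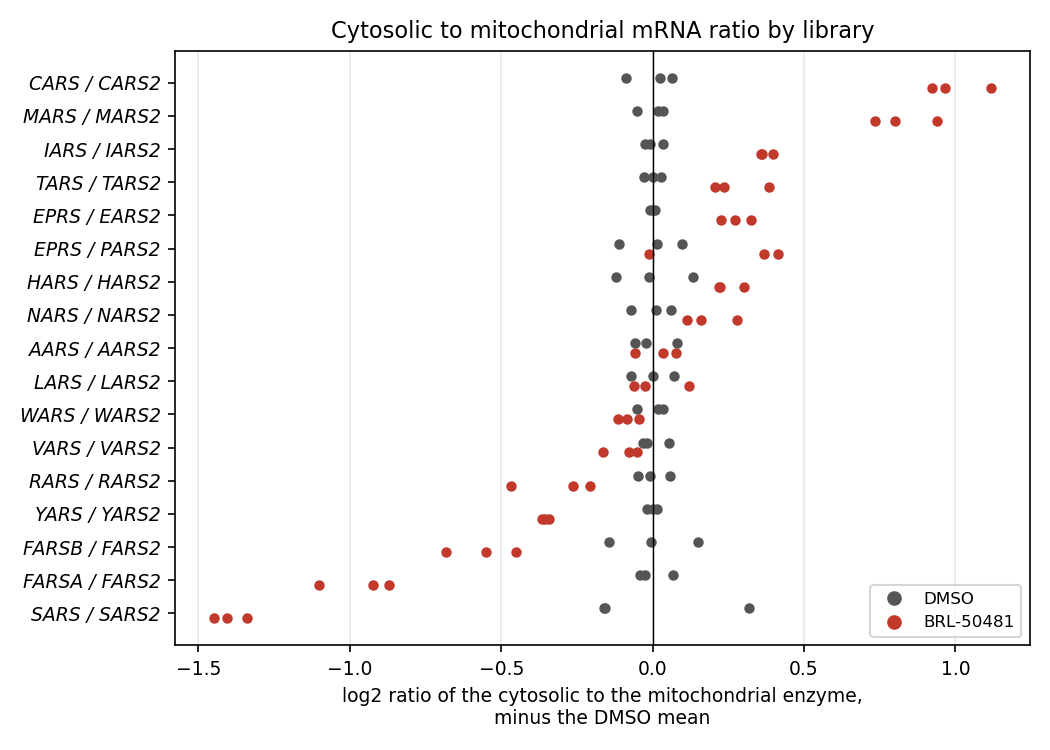
Log2 ratio of the cytosolic to the mitochondrial enzyme of each amino acid in each library, minus the DMSO mean of the ratio, with 3 DMSO (gray) and 3 BRL-50481 (red) libraries per pair. CARS to CARS2 (1.00) and MARS to MARS2 (0.82) shifted farthest to the right, and SARS to SARS2 (−1.39) and FARSA to FARS2 (−0.96) farthest to the left. Another gene model overlaps 48.2% of the exon bases of SARS2, so its reads are uncertain.

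Genes around tRNA charging were read from 8 lists, which include 23 genes of ATF4 and its targets and 7 of eIF2α, its kinases and its phosphatase. In these lists 11 of 61 genes rose and 34 fell, beside 28.9% higher and 29.8% lower over all genes. The lists were chosen with earlier results of these data known, so these counts may partly reflect that choice. Among genes in the level range of the cytosolic enzymes 41.3% were lower, and in that of the mitochondrial enzymes 38.2%. All 3 scaffolds of the multisynthetase complex fell. AIMP1 was at 2783, 3050 and 2807 in DMSO and 2240, 2212 and 2280 in BRL-50481 (log2 fold change −0.36). AIMP2 was at 2231, 2598 and 2513 in DMSO and 1628, 1637 and 1679 in BRL-50481 (−0.57), and EEF1E1 at 773, 896 and 827 against 649, 617 and 649 (−0.38). The groups were separate for each scaffold, while 2 of the 8 enzymes that they hold rose, 3 fell and 3 were not called.

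Mitochondria make glutaminyl-tRNA by way of EARS2 and an amidotransferase rather than a glutamine enzyme. Of 4 genes for the amidotransferase and for formylation of the initiator, GATC fell by 0.54 on the log2 scale, GATB rose by 0.34, and QRSL1 (−0.060) and MTFMT (0.22) were not called. Under median centring and under the length and GC correction 2 of the 4 and not 1 rose. Of 3 further synthetases and relatives, SEPSECS (0.55) and PSTK (0.45), which make selenocysteinyl-tRNA, rose and TARSL2 (−0.80) fell. Of these, 1 and not 2 rose under quantile normalization and without DMSO replicate 1, BRL-50481 replicate 1 or BRL-50481 replicate 2.

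Downstream of charging, the 3 factors that carry aminoacyl-tRNA to the ribosome fell, with log2 fold changes of −0.40 for EEF1A1, −1.32 for EEF1A2 and −0.41 for TUFM, the mitochondrial factor, although 2 of the 3 passed under quantile normalization. Of 4 rows listed under editing and deacylation, PTRH2 (−0.84), DTD1 (−0.46) and DTD2 (−0.20) fell. PRORSD1P (0.32), low at a DMSO mean of 11.3, was not called, and AARSD1 was not among the rows. Of 14 genes of tRNA maturation and export 2 rose and 8 fell, with a median of −0.28. CLP1 and TSEN54 of the splicing machinery both fell by 0.81 on the log2 scale, XPOT, the tRNA exporter, rose by 0.35, and ELAC1 rose by 2.29 from a low DMSO mean of 12.9.

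ATF4 mRNA fell by 0.35 on the log2 scale, from 11316, 12955 and 12507 in DMSO to 9399, 9688 and 9675 in BRL-50481. In a list of 23 genes made of ATF4 and its targets outside the synthetases, 12 fell, 3 rose and 8 were not called, with a median of −0.19. ATF3 (−1.02), CHAC1 (−0.96) and ASNS (−0.86), the asparagine synthetase of metabolism and not a tRNA enzyme, fell the most. SESN2 (0.77), TRIB3 (0.75) and SHMT2 (0.27) rose. Over all genes tested 29.8% were lower and 28.9% higher, and 41.3% were lower in the level range of the cytosolic enzymes. Of 7 genes of eIF2α, its kinases and its phosphatase 3 rose and 3 fell. EIF2AK4, the sensor of uncharged tRNA, rose by 0.27 on the log2 scale, with 3061, 2547 and 2829 in DMSO and 3408, 3378 and 3336 in BRL-50481. PPP1R15A (−0.72), EIF2S1 (−0.53) and PPP1R15B (−0.44) fell. Phosphorylation and ATF4 protein were not measured in these libraries.

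**Figure D4:**
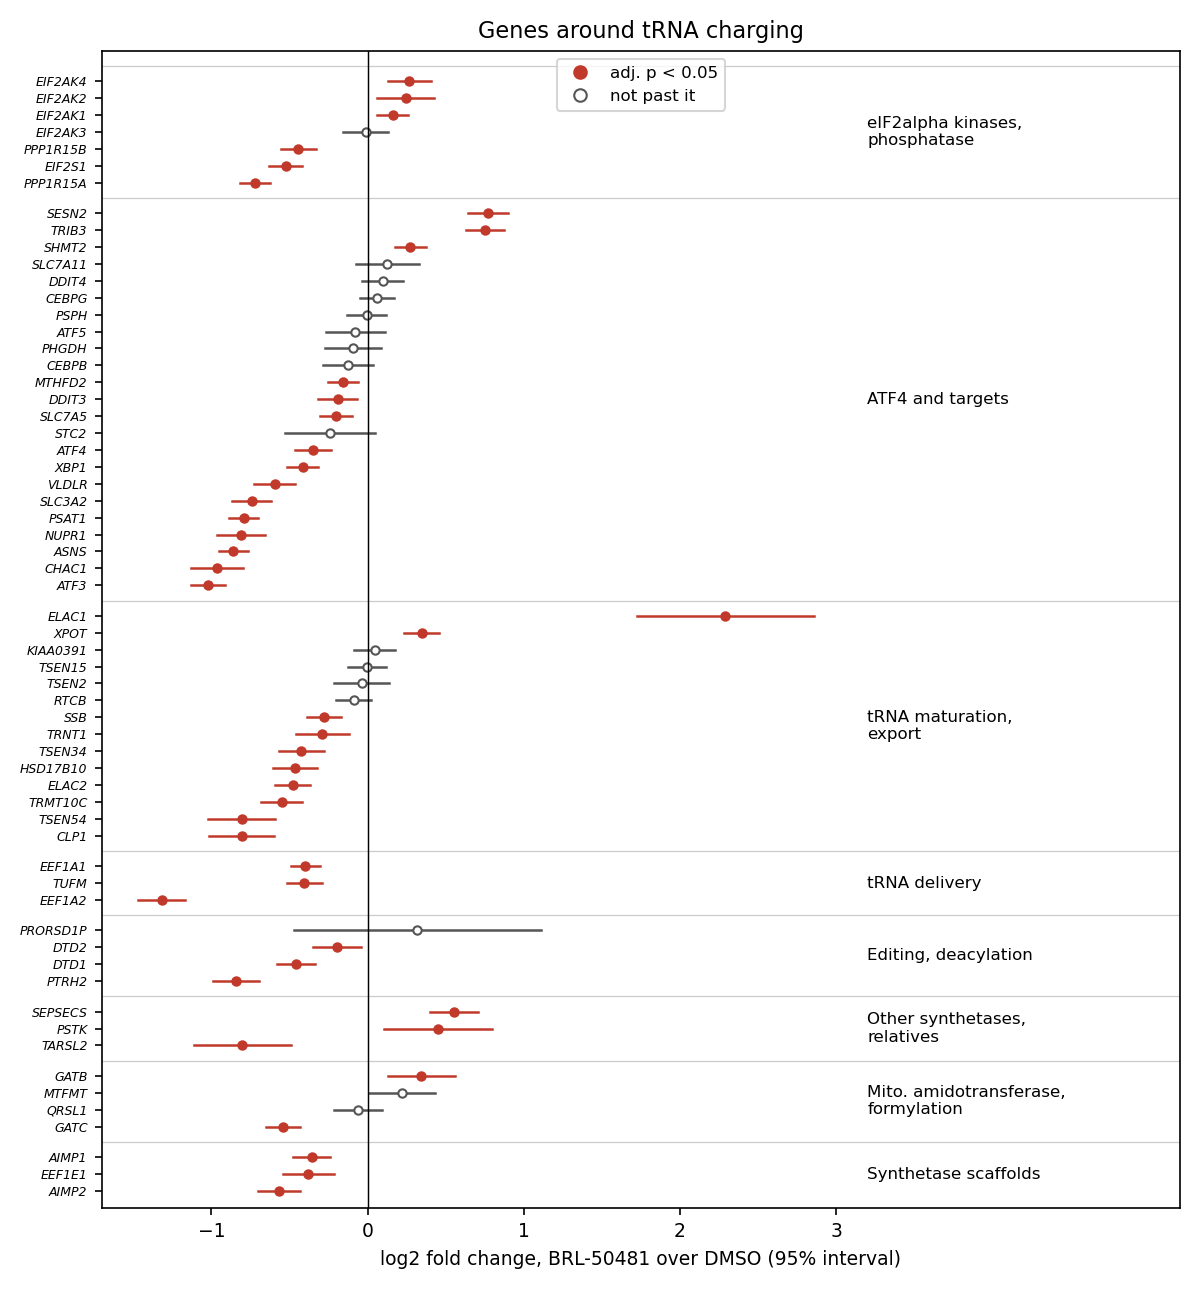
Log2 fold change (BRL-50481 over DMSO, points) with its 95% interval (bars) for the 61 genes of the 8 lists around tRNA charging, filled where the adjusted p-value was under 0.05. The 3 scaffolds and the 3 delivery factors all lie left of zero, the ATF4 list spans zero, and ELAC1 (2.29) lies farthest to the right.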

How the data were processed

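RNA sequencing of 6 MDA-MB-231 libraries was read from 1 table. According to the methods and the submitters' processing notes, the authors aligned reads to hg38 with STAR 2.7.1a, counted them per gene in reverse-strand mode with htseq-count on UCSC annotation, and used DESeq2 1.28. The deposited signal is each gene's read count divided by a library size factor. The deposited comparison columns (mean signal, log2 fold change, its standard error, a test score, p-value and adjusted p-value) hold the authors' own results and were not used.

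Genes that reached a normalized count of 4 in 3 or more libraries were tested with limma 3.58.1 (R 4.3.3, trend) on log2(normalized count + 1), which understates changes of low genes, with Benjamini-Hochberg adjustment over 15246 genes and a threshold of 0.05. Fold changes are on that scale. All values were whole multiples of 1 read (100% within 0.01 of a read), so edgeR 4.0.16 and DESeq2 1.42.0 were run on the recovered reads as alternatives. Ratios were compared with two-sided exact permutation tests (scipy 1.17.1). Replicates differed by more than counting noise, and the series record calls them biological. If they were not separate cultures, p-values measure the spread between libraries only. The limma, edgeR and DESeq2 fits were tested on simulated counts. Those counts held far fewer changed genes than were called here and the same noise setting for all genes.

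Positions, lengths and exon overlaps are from GENCODE 44 (hg38), where 14216 genes matched by symbol, 895 by an older symbol and 540 not at all. Members, lists and tests were chosen with earlier results of these data known. All members could be named, with values by library for those called past 0.5 on the log2 scale, those with an adjusted p over 0.5, and EPRS, GARS, KARS, HARS and HARS2. From each list up to 3 called genes with the largest fold change, ATF4, EIF2AK4, the scaffolds and PDE7A were named, and the others were chosen after their values were seen. Some related genes are not reported here.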

Additional observations from a re-analysis of the deposited data

How the results depend on the processing

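Under 17 alternative fits, 23 of the 36 members kept their direction and their side of the threshold. Of 612 member values, 24 in 6 members lost a call, 12 in 5 members gained one and 5 in 2 members changed sign. Leaving out 1 library lost 5 member calls (AARS, FARSB, GARS, HARS and LARS2) and gained 3 (AARS2, PARS2 and RARS2). The median log2 fold change of the cytosolic enzymes, 0.012, became 0.063 with quantile normalization and 0.042 with median centring, and ran from −0.0057 to 0.036 when 1 library was left out. That of the mitochondrial enzymes, −0.16, became −0.13 with median centring and ran from −0.19 to −0.13. EPRS, at 0.016 and not called, was negative without DMSO replicate 2 (−0.026), without BRL-50481 replicate 3 (−0.00099) and with the length and GC correction (−0.047), and reached 0.063 without another library. MARS, at 0.0068 and not called, was negative without DMSO replicate 3 (−0.0029) or BRL-50481 replicate 2 (−0.0035), and reached 0.021 without another library. The AARS to AARS2 and LARS to LARS2 ratios were negative without DMSO replicate 3 (−0.012 and −0.026) and without BRL-50481 replicate 1 (−0.012 and −0.044), and reached 0.057 and 0.046 without another library. The causes were not tested. The cytosolic enzymes called ran from 6 to 9 in each direction over all alternatives, and the mitochondrial ones from 4 to 5 higher and 5 to 9 lower. With the replicate number as a block, 4440 genes were higher and 4589 lower, with 8 and 9 cytosolic and 4 and 6 mitochondrial members. The numbers were not taken to pair the samples, since same-numbered libraries correlated at 0.121, 0.104 and 0.051, though 5 of 6 libraries correlated best with their own number. With 3 libraries a group, no ratio of a pair could pass 0.05, and SARS2, PARS2 and FARS2, the members with the lowest counts, had the largest standard errors.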
